A study of Drosophila melanogaster with 12 samples.

Results

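Of the 2171 consensus regions bound by Ultrabithorax (Ubx) in the haltere disc, 751 (34.6%) lay deep inside protein-coding genes and outside dense clusters of binding. A region was taken when its midpoint fell inside a protein-coding gene and over 1000 bp from any end of such a gene. It had to lie on arm 2L, 2R, 3L, 3R, 4 or X, outside the tandem histone genes of 2L. Of 958 regions at such positions, 207 belonged to a chain of 5 or more regions joined by gaps of at most 10000 bp and were left out. Other parts of a gene were not distinguished, because the gene table gives no exons, introns or strand. Positions are those of the deposited lists, for which the submitters' processing notes name the build BDGP6 (Release 6).

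Ubx is a Hox protein, a homeodomain transcription factor that specifies the posterior thorax of the fly. It modifies the appendage programme shared by the wing and the haltere, so that the haltere stays small and balloon-shaped, without veins or a flat blade. Hox proteins bind short sites together with the homeodomain cofactors Extradenticle and Homothorax. In flies, enhancers often lie inside the genes they regulate, or inside a neighbour, so an intragenic region need not act on its host gene.

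Ubx ChIP-seq was carried out on 3 biological replicates of haltere imaginal discs, with a polyclonal antibody to the amino-terminal part of the protein. The larvae were wild-type Canton S at the wandering stage, and no treatment was given. Input libraries, and the wing disc libraries with their inputs, belong to the same series and were not analysed here. Discs hold myoblasts and tracheal cells beside the epithelium, and a peak list does not tell in which cells a site was bound. The tissue label could not be checked against marker genes, because the lists hold no expression values.

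The 3 lists differed in length, and replicate 1 overlapped the other lists least. They held 2869 peaks in replicate 1, 2361 in replicate 2 and 3859 in replicate 3. At positions deep inside genes, chains included and the histone stretch left out, there were 1484, 1005 and 1703 peaks in replicates 1, 2 and 3. These made up 52.1% of the peaks of replicate 1 on the arms, 45.5% of those of replicate 2 and 46.3% of those of replicate 3, while such positions made up 49.4% of the arm sequence considered. A consensus region overlapped 45.4% of these deep peaks in replicate 1, 72.6% in replicate 2 and 53.3% in replicate 3. Read depth is unknown, so a site missed in 1 list says only that no peak passed the authors' threshold there.

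The deep intragenic regions were short, with a median width of 193 bp and a range of 1 to 1100 bp. They are stretches shared by peaks of at least 2 libraries, and 24 of them were narrower than 50 bp. All 3 libraries had a peak at 311 of the 751 (41.4%, 95% Wilson interval 37.9 to 45.0%), and the other 440 were shared by 2 libraries. Replicate 3 overlapped 719 of the regions (95.7%), replicate 2 overlapped 568 (75.6%) and replicate 1 overlapped 526 (70.04%). Among the regions of 2 libraries, replicate 1 lacked a peak at 225, replicate 2 at 183 and replicate 3 at 32. The count of members therefore rested most on replicate 3: 343 of the 751 had peaks in both replicates 1 and 2. When only replicates 1 and 2 were used from the start, 404 regions met the same rule. That number is above 343, so these are not simply the members that remained.

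Fold enrichment, the linear ratio over the background that the authors' peak caller gives at each summit, had a median of 4.70 in replicate 1, 4.45 in replicate 2 and 5.13 in replicate 3 at these regions. The ranges were 2.52 to 20.8, 2.27 to 12.8 and 2.53 to 16.5. Regions in all 3 libraries were stronger than those in 2 libraries within every list. In replicate 1 the medians were 4.98 for regions in all 3 libraries and 4.24 for those in 2. The same medians were 4.94 and 4.05 in replicate 2, and 6.60 and 4.46 in replicate 3. Regions in all 3 libraries were also wider, at a median of 291 bp. A region is the stretch shared by peaks of at least 2 libraries, so a further overlapping peak can only keep or widen it. The greater width thus follows in part from the definition.

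The order of strength was shared only in part between libraries. Across the 536 regions with peaks in replicates 2 and 3, Spearman's rho of the fold values was 0.56. It was 0.32 across 494 regions for replicates 1 and 3, and 0.27 across 343 regions for replicates 1 and 2. These are correlations across regions of single libraries, not across replicated samples, and the points of each pair come from the same 2 libraries. In the regions found in all 3 libraries the summits of the strongest peaks lay a median of 77 bp apart, and within 50 bp of each other in 118 of 311 regions (37.9%).

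The deep intragenic regions were compared with the other positions to ask whether binding inside genes was stronger or better recovered. The test of strength over 3 libraries cannot give a p below 0.25, so it cannot settle this, whatever the size of a difference. The classes were told apart by position, but every region of every class had already been selected for peaks in at least 2 libraries, so recovery is described here without a test. Strength was compared within each library, with the 3 libraries as replicates. Chains were left out of all 3 position classes. The share found in all 3 libraries was 41.4% for deep intragenic regions, against 46.0% (195 of 424, 41.3 to 50.7%) for regions outside genes and over 1000 bp from their ends. Regions within 1000 bp of a gene end had 34.1% (89 of 261, 28.6 to 40.0%), and regions in chains had 53.8% (318 of 591, 49.8 to 57.8%). These Wilson intervals cover counting error over regions only.

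Peaks at deep intragenic regions had a median rank at percentile 59.6 of fold enrichment in replicate 1, 62.1 in replicate 2 and 67.0 in replicate 3. Peaks at far intergenic regions had medians of 55.5, 63.4 and 69.7. The difference was 4.09 percentile points in replicate 1, -1.30 in replicate 2 and -2.75 in replicate 3, with a mean of 0.0125 ± 3.60 (SD, n = 3; exact two-sided sign-flip permutation p = 1). Replicate 1 thus differed in sign from the other two. Regions near gene ends had median percentiles of 58.1, 57.6 and 67.9, and deep intragenic regions exceeded them by 1.57, 4.49 and -0.959 points (mean 1.70 ± 2.73, SD, n = 3; exact permutation p = 0.5). With chains kept in each class, deep intragenic regions exceeded those near gene ends in all 3 libraries, by 5.32, 6.16 and 0.700 points (mean 4.06; exact permutation p = 0.25). With 3 libraries this test cannot give a p below 0.25, and a high p does not show that the positions are alike.

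Recovery by single libraries differed in opposite directions. Replicate 1 overlapped 70.04% of the deep intragenic regions (66.7 to 73.2%), against 63.2% of the far intergenic ones (58.5 to 67.7%). Replicate 2 overlapped 75.6% of the deep intragenic regions (72.4 to 78.6%), against 85.1% of the far intergenic ones (81.4 to 88.2%). For replicate 3 the shares were 95.7% and 97.6%. Because each region has peaks in at least 2 of the 3 libraries, a region missed by 1 library is by definition in the others, and these shares are not independent of each other.

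**Figure D1:**
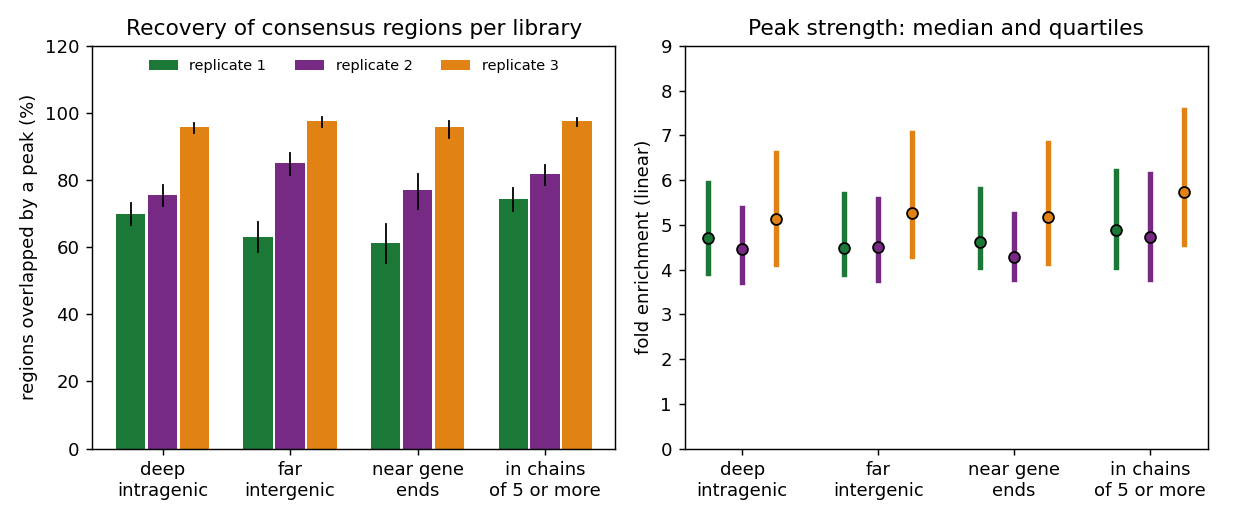
Left, the percentage of consensus regions of each position class that a peak of each library overlaps, with 95% Wilson intervals as black lines. Right, fold enrichment of the peaks at those regions on a linear scale, with the median as a point and the quartiles as a bar. Replicate 1 overlaps 70.04% of deep intragenic and 63.2% of far intergenic regions, and replicate 2 overlaps 75.6% and 85.1%.

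Within their genes, the regions lay a median of 6921 bp from the nearest gene end, with quartiles of 3058 and 13679 bp. The member deepest inside a gene lay 745712 bp from an end, in Myo81F, a gene of 1965857 bp on 3R. None of the 5 regions in Myo81F had a peak in replicate 1. Their folds were low, at 2.27 to 4.21 in replicate 2 and 2.86 to 4.58 in replicate 3. Regions 1 to 2 kb from an end were found in all 3 libraries in 37 of 102 cases (36.3%), and those over 20 kb away in 47 of 102 (46.1%, 36.7 to 55.7%), with values between 40.1 and 42.5% in the distance classes between. Spearman's rho of distance and fold percentile across regions was 0.059, -0.093 and 0.0084 in replicates 1, 2 and 3. The class medians of the fold percentile did not move alike in the libraries. At 1 to 2 kb and over 20 kb they were 53.7 and 74.3 in replicate 1, 68.0 and 59.4 in replicate 2, and 66.5 and 69.7 in replicate 3. In replicate 2 the lowest, 53.7, was at 10 to 20 kb.

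Just inside the 1000 bp limit lay regions in CG14478 (1001.5 bp from an end; folds of 4.10 in replicate 1 and 5.54 in replicate 3), LanA (1004 bp; 3.27, 5.52 and 5.15 in replicates 1, 2 and 3) and psq (1037.5 bp; 5.69, 6.52 and 6.20). Just outside the limit lay regions in so (997.5 bp; 3.40, 8.39 and 7.57), scramb2 (992.5 bp; 4.38 in replicate 2 and 5.74 in replicate 3) and CG6023 (983.5 bp; 5.39 in replicate 1 and 4.97 in replicate 3).

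Support increased with the number of consensus regions close by. Of the members, 299 had no other consensus region within 10 kb, and 103 of these (34.4%, 29.3 to 40.0%) were found in all 3 libraries. The share was 41.1% of 207 members in groups of 2 regions and 47.3% of 148 in groups of 3. In groups of 4 it was 54.6% (53 of 97, 44.7 to 64.2%). Single libraries did not all follow this order: replicate 2 overlapped 69.9, 78.7, 75.7 and 86.6% of members in groups of 1 to 4, replicate 1 overlapped 68.6, 67.1, 75.7 and 72.2%, and replicate 3 overlapped between 95.2 and 96.0%. In 52 members a peak also overlapped a neighbouring consensus region, so their calls are not separate. Without them, an alternative chosen after seeing the data, the shares were 34.4, 41.7, 49.2 and 52.7%.

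**Figure D2:**
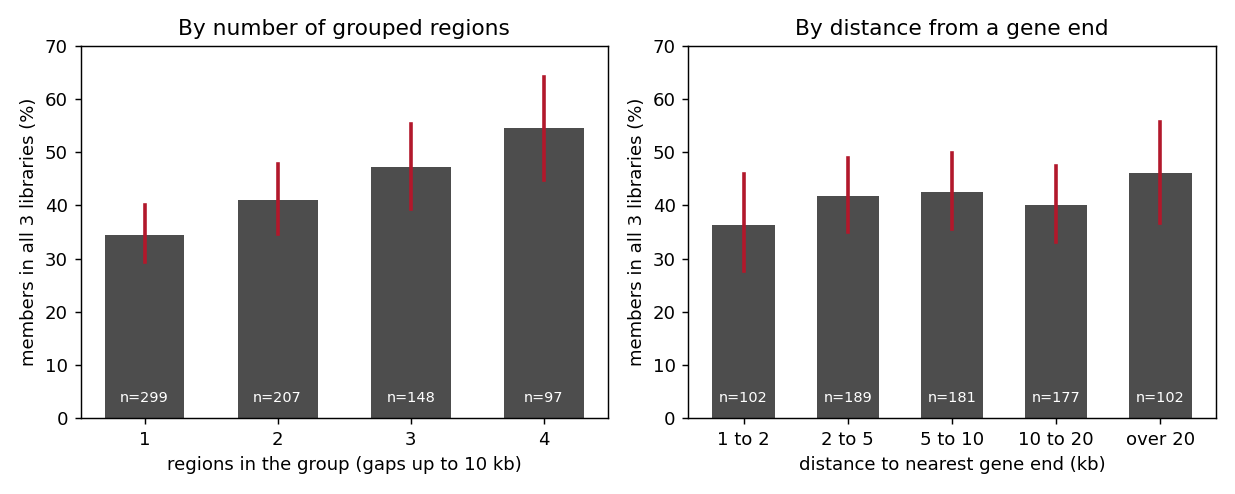
Percentage of deep intragenic regions found in all 3 libraries (grey bars, 95% Wilson intervals in red, number of members at the foot), by the number of consensus regions joined by gaps of up to 10 kb on the left and by distance to the nearest gene end in kb on the right. The share is 34.4% for lone regions and 54.6% in groups of 4, and 36.3% at 1 to 2 kb and 46.1% over 20 kb. Intervals of adjacent classes overlap in both panels. They cover counting error over regions only, and regions of 1 group are not independent.

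The 751 regions lay in 433 genes, which are called host genes here. That is 6.03% of the 7185 protein-coding genes long enough to hold such a region. In 217 of these genes (3.02% of the 7185) at least 1 region was found in all 3 libraries. A single region was held by 254 genes, 98 genes held 2 and 81 held 3 or more, and 34 regions lay in 2 or more overlapping genes. Replicates 1 and 2 alone gave 253 host genes. Host genes were long, with a median of 27091 bp against 4785 bp for all genes that could hold a region.

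The share of host genes was larger among longer genes. Of the genes under 20 kb, 2.67% held a region, against 21.1% of those of 20 to 50 kb and 38.8% of those of 50 kb or more. Per megabase (Mb) of deep interior, the number of regions was nearly level from 10 to 100 kb, at 13.2 for genes of 10 to 20 kb, 13.2 for 20 to 50 kb and 13.3 for 50 to 100 kb. In these length classes a region inside overlapping genes counted once for each gene, as did the shared sequence. The number per Mb was lower in shorter genes, at 2.58 for 2 to 5 kb and 10.5 for 5 to 10 kb, and in genes over 100 kb, at 8.40. Of the 14.1 Mb of deep interior in genes over 100 kb, 1963855 bp lay in the single gene Myo81F, which held 5 regions and lowers this value. Over the arms, with each region and base counted once, deep intragenic positions held 11.4 regions per Mb without chains. Far intergenic positions held 12.2 per Mb and those near gene ends 7.97. With chains counted the values were 14.6, 21.8 and 9.65 per Mb.

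**Figure D3:**
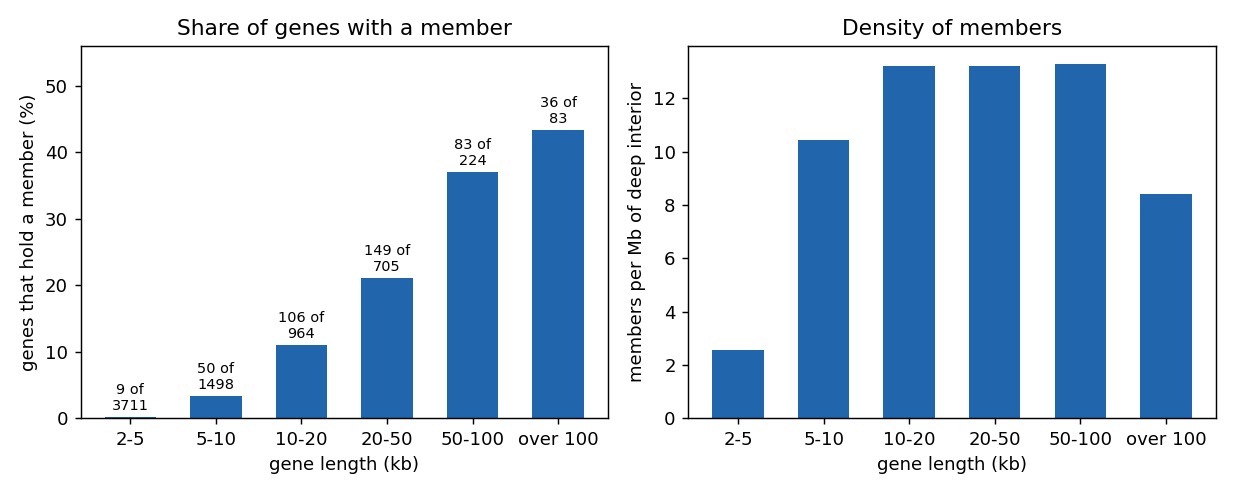
Left, percentage of protein-coding genes in each length class (kb) that hold a deep intragenic region, with the numbers of genes above the bars. Right, deep intragenic regions per Mb of deep gene interior in the same classes, with regions and sequence inside overlapping genes counted for each gene. The share of host genes reaches 43.4% in genes over 100 kb, while the density is level between 10 and 100 kb.

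The density of regions was lowest on X and 4. There were 13.8 per Mb of deep interior on 2R, 12.2 on each of 2L and 3L, 11.4 on 3R, 8.05 on X and 5.88 on 4, where only 5 regions lay. The value of 3R is lowered by the single gene Myo81F. It holds 1963855 bp of the 16.9 Mb of deep interior on 3R, but only 5 regions. The order of 2L, 3L and 3R should therefore not be relied on. On X, replicate 3 overlapped 101 of 101 regions, replicate 1 overlapped 73.3% (63.9 to 80.9%) and replicate 2 overlapped 67.3% (57.7 to 75.7%). On 2R replicate 1 overlapped 63.6% (55.9 to 70.6%), and 35.8% of the regions were found in all 3 libraries, against 40.0 to 44.6% on the other arms.

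The gene with most regions was hth, which encodes the homeodomain cofactor Homothorax and acts in the body wall and hinge parts of the wing and haltere discs. It spans 132008 bp on 3R, and all of its 12 consensus regions were deep inside it, 5 of them in all 3 libraries. Its strongest region, from 10614320 to 10614934, had folds of 9.14, 8.74 and 13.4 in replicates 1, 2 and 3. A second one from 10616741 had 5.03, 5.25 and 7.78, and both had their highest fold in replicate 3. Around 10573396 to 10574323, 3 regions lay side by side and partly shared peaks, and 1 of them was found in all 3 libraries. Leaving out replicate 1, 2 or 3 in turn gave 9, 8 and 5 regions in the gene.

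Next came brat and jing with 7 regions each, 5 of them in all 3 libraries in both genes. The gene brat encodes a translational repressor of growth. Its strongest region by mean fold percentile lay at 19141543 to 19141709 on 2L, with folds of 8.14, 5.31 and 6.12, highest in replicate 1. The region from 19142202 had 5.81, 5.32 and 6.23, slightly higher in replicates 2 and 3. By the same measure, the zinc-finger gene jing had its strongest region at 6562690 to 6563110 on 2R. Its folds were 8.43, 7.71 and 9.25, all in the upper part of their lists. Snoo, which encodes a Ski-related corepressor of TGF-beta signalling, also had 7 regions, but 2 of them in all 3 libraries.

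Antp is the Hox gene of the middle thorax and its legs. It held 6 regions, and all 6 were found in all 3 libraries. By definition they therefore stayed when any replicate was left out. These regions also lie in the overlapping gene CG46458. Fold enrichment varied widely among them, and the first 2 regions share a peak of replicate 1. The region from 6914197 to 6914378 on 3R had 6.46, 7.40 and 8.79, and that from 6923070 to 6923493 had 8.29, 3.84 and 10.8, low in replicate 2. The region from 6952113 had 10.8 in replicate 1 but 3.60 and 3.34 in replicates 2 and 3.

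The other host genes with 6 regions were Glut4EF with the overlapping CG46467, Ptp61F, kirre, Eip75B, psq, bi, sano and ush. In Glut4EF, Ptp61F and kirre 4 of the 6 were found in all 3 libraries. Ptp61F encodes a phosphatase that dampens JAK/STAT signalling, and kirre an immunoglobulin-family adhesion protein of muscle founder cells. The kirre gene is 394149 bp long, yet its regions all lay between 2964733 and 3046018 on X, the first of them also inside rst, a related adhesion gene. Among those found in all 3 libraries, the one from 3040665 to 3041060 had the highest mean fold percentile, with folds of 9.17, 5.04 and 7.65. Folds at the first region were 4.71, 7.25 and 8.17, higher in replicates 2 and 3. Values in psq, which encodes a partner of the GAGA factor, were uneven, with 3 of the 6 regions in replicate 2. The T-box gene bi (optomotor-blind), which patterns the central wing, had 2 of 6 in all 3 libraries. So had sano, a gene of planar polarity, while ush, the cofactor of the notum factor Pannier, had 1 of 6. Most of the regions in sano and ush came from replicates 2 and 3: without replicate 2 or 3, sano had 2 regions.

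Of the genes with 5 regions, sima (the fly HIF-alpha) had 4 in all 3 libraries, and Bx, Eip74EF, Ten-a and pyd had 3 each. Bx encodes a LIM-only protein that restrains the dorsal selector Apterous, Ten-a a teneurin adhesion protein and pyd a junction protein related to ZO-1. A region in sima from 30100676 to 30100995 on 3R had folds of 13.1, 6.96 and 12.9. The other 4 regions of the gene were weaker in every library with a peak there, with folds between 3.22 and 5.35. In pyd the region from 8927451 had 13.8 in replicate 3 but 4.20 in replicate 1 and 6.32 in replicate 2.

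**Figure D4:**
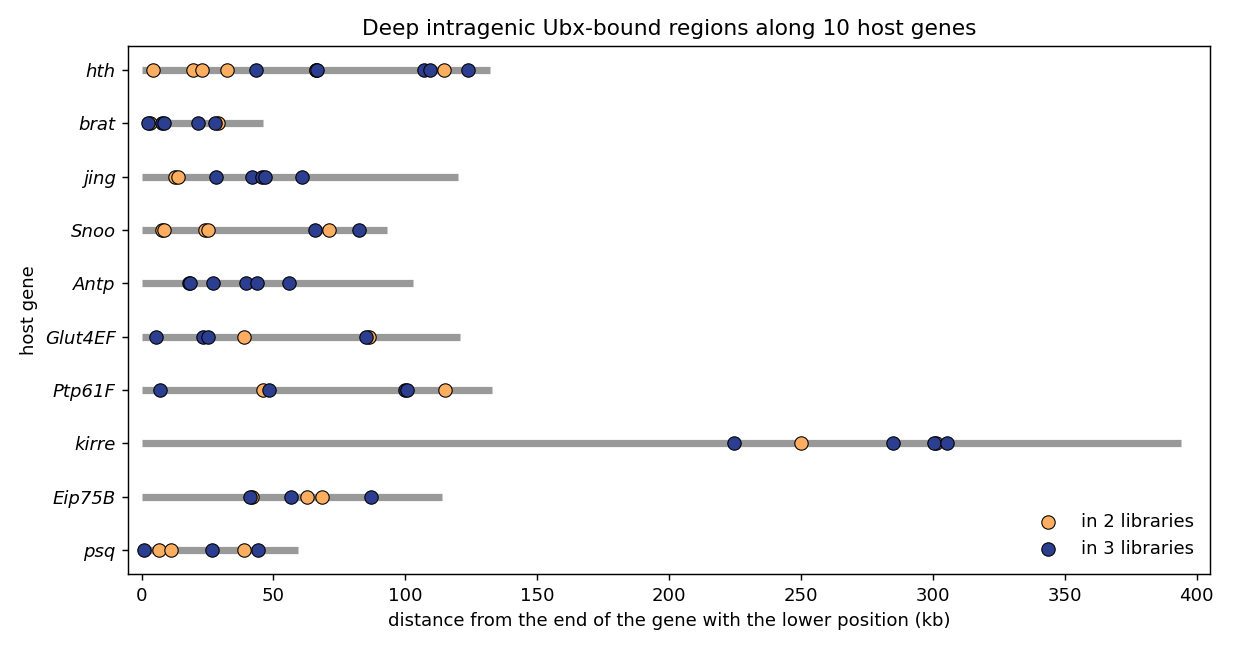
Position of the deep intragenic regions along the first 10 separate host genes by number of regions, in kb from the end of the gene with the lower position. Grey bars are the genes, blue points are regions in 3 libraries and orange points are regions in 2 libraries. The 12 regions of hth are spread along the gene, and the 6 of Antp are all blue.

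The strongest regions were ranked by their mean fold percentile over the 3 libraries among those found in all 3. The first lay in CG6891 on X (18776154 to 18776400), with folds of 10.4, 12.8 and 12.2 in replicates 1, 2 and 3. The second lay in ec, which encodes a ubiquitin protease relative needed for cell death in the eye. At that region (X, 3833253 to 3833663) the folds were 20.8, 9.02 and 13.3. The third lay in magu, also called pentagone, a secreted regulator that widens the Dpp gradient in the wing disc, and had folds of 17.8, 8.54 and 16.5 (2R, 10055933 to 10056416). In ec and magu replicate 1 was highest and replicate 2 lowest, whereas in CG6891 the 3 values lay close together.

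The hth region described above came next. It was followed by a pair in Ctps (CTP synthase) on 3L, with folds of 8.93, 10.3 and 10.4 from 15104122 to 15105034 and 8.04, 8.87 and 16.4 from 15108100 to 15108483. The region from 15108100 is also inside CG45071. A region in crol, an ecdysone-induced zinc-finger gene, had 7.68, 10.6 and 11.5 (2L, 11806784 to 11807372). The remaining 8 of the 15 lay in sima, sbb, abd-A, jing, twi, melt, sog and vg. The mean percentile of the 15 ran between 94.6 and 99.0, and their distance from a gene end between 1049 and 37144 bp.

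**Figure D5:**
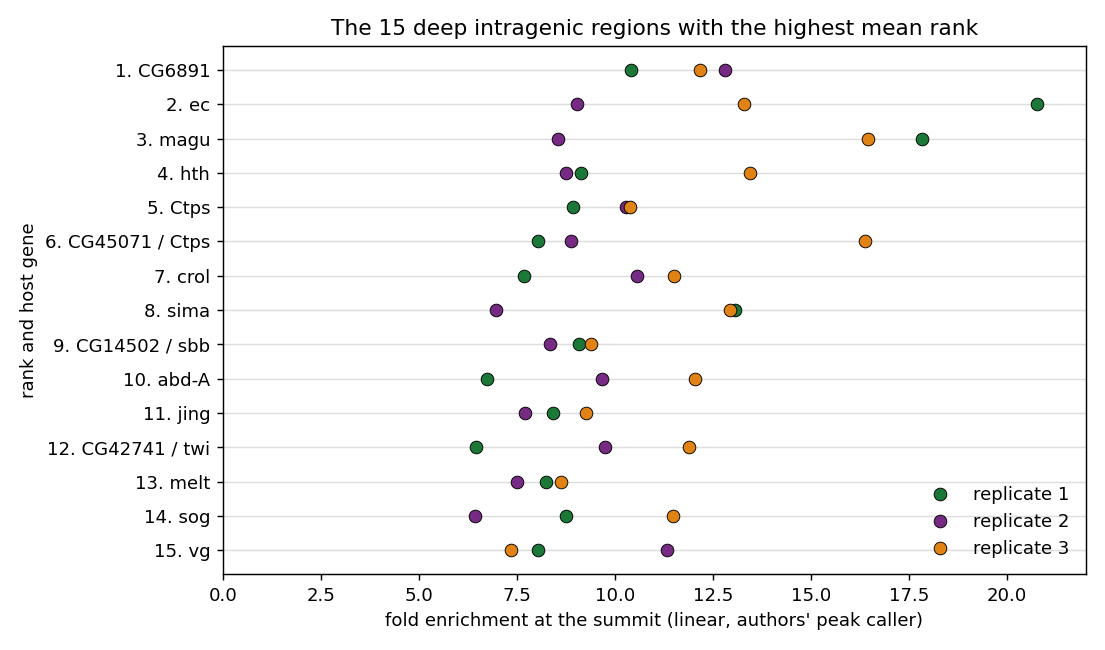
Fold enrichment (linear, from the authors' peak caller) in replicates 1, 2 and 3 for the 15 deep intragenic regions found in all 3 libraries with the highest mean percentile, by rank and host gene. Values run from 6.43 in replicate 2 at sog to 20.8 in replicate 1 at ec, and no replicate is highest throughout.

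Genes of wing and haltere development were examined through 15 lists. The lists were chosen with earlier results of these data known, so their counts are descriptions. Together they held 316 genes long enough for a deep region, of which 106 (33.5%) had one, beside 6.03% of all such genes. Leaving out replicate 1, 2 or 3 gave 89, 93 and 77 genes. Listed genes are long, so the shares are also given by length class. Under 20 kb, 31 of 162 (19.1%) were hosts, beside 2.67% of all genes. At 20 to 50 kb it was 39 of 91 (42.9%) beside 21.1%, and at 50 kb or more 36 of 63 (57.1%) beside 38.8%. These classes are broad: among all genes the share rose from 0.243% at 2 to 5 kb to 11.0% at 10 to 20 kb. Whether length accounts for the gap was not tested. In 63 listed genes a region was found in all 3 libraries, which is 19.9% of the 316 beside 3.02% of all such genes. The counts of each list below are to be read beside the 6.03% of all genes and the shares of all genes by length.

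Among the Hox genes and cofactors, 4 of 10 were hosts, and each had regions in all 3 libraries. Besides hth and Antp these were Ubx and abd-A, which specifies the anterior abdomen. Of the 11 consensus regions in Ubx itself, 7 were in chains or near gene ends, and 4 were deep and outside chains. The region from 16659489 to 16659947 on 3R had folds of 5.84, 4.92 and 7.10, and those from 16663590 and 16718263 had 3.56, 4.18 and 6.69, and 4.54, 3.58 and 6.23. All 3 were highest in replicate 3. The region in abd-A (3R, 16811709 to 16811973) had 6.73, 9.66 and 12.03. The Hox genes Scr, Dfd, lab, pb and Abd-B and the cofactor exd held none.

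Of the transcription factors of the wing, hinge and notum, 19 of 48 were hosts, 10 of them with a region in all 3 libraries. The wing selector vg had a single region, 746 bp wide (2R, 12889079 to 12889824), with folds of 8.04, 11.3 and 7.36. It was high in every list and highest in replicate 2. The vein gene knrl, a knirps relative, had folds of 4.63, 9.12 and 13.9 at its region (3L, 20600563 to 20600790), lowest in replicate 1 and highest in replicate 3. The Iroquois gene caup had a pair of regions in all 3 libraries (6.10, 5.61 and 6.84 at the stronger one), and the homeobox gene al, which patterns appendages, had 3 regions of which 1 was in all 3. The hinge gene zfh2 held 5 regions, which are all of those on arm 4, and 2 of them were in all 3 libraries. The genes bs, tio and tup each had 1 region in all 3 libraries: bs encodes the fly serum response factor, which specifies intervein cells, tio is a teashirt paralogue and tup encodes a LIM-homeodomain factor of the notum. The genes sd, nub, ara, inv, toe, Dr, elB and klu each had 1 region in 2 libraries, and dve had 3. In inv there were 3 consensus regions, the others in chains or near gene ends.

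In the Dpp pathway, the BMP signal that shapes growth along the anterior-posterior axis and is reduced in the haltere, 7 of 17 genes were hosts. A region in all 3 libraries was found in 5 of them: magu, the glypican dlp, the BMP-binding proteins sog and cv-2, and the inhibitory Smad Dad. At Dad the region from 17061889 to 17062391 on 3R had folds of 5.98, 8.55 and 13.2, and the other 2 regions were missing in replicate 2. The region of sog with the higher mean fold percentile had 8.76, 6.43 and 11.5, though the other was higher in replicate 2 at 7.83. The stronger region of dlp had 5.60, 5.06 and 7.76. The receptor gene tkv had 1 deep region outside chains, found in 2 libraries. In all, 11 consensus regions lay in tkv, the others in chains or near gene ends. The glypican gene dally had 2 regions, each in 2 libraries.

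Of the Wnt pathway, 9 of 22 genes were hosts. The ligand gene Wnt10 had 3 neighbouring regions from 7371769 to 7374188 on 2L, all in all 3 libraries, with folds between 3.92 and 7.18. The receptors fz and fz2 and the kinases sgg and nmo each had 1 region in all 3 libraries, as had drl, a Wnt5 receptor. In fz2 the other 8 of its 10 consensus regions were in chains or near gene ends. Of 11 Hedgehog pathway genes, 2 were hosts: shf, whose product helps Hedgehog spread, with 2 of 3 regions in all 3 libraries, and hh with 1 region in 2 libraries.

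In the Notch pathway 5 of 14 genes were hosts, with regions in all 3 libraries in N, its glycosyltransferase fng, the coactivator mam and the protease kuz. The fng region (3L, 20931047 to 20931596) had folds of 5.55, 4.34 and 8.36. In the EGF receptor pathway 8 of 19 were hosts. The kinase gene Raf had a region from 2296475 to 2296730 on X with folds of 7.40, 7.24 and 8.04, nearly equal in the 3 libraries. The repressor aop (Yan) had 4 regions, the ligand spi 2 and the phosphatase Mkp3 2, each with at least 1 in all 3 libraries. The 4 regions of Egfr were each found in 2 libraries, 3 of them in replicates 1 and 3.

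Of the Fat and Hippo growth genes 4 of 16 were hosts, each with a region in all 3 libraries: the cadherin ds, kibra, the kinase wts and the caspase inhibitor Diap1. The region in wts (3R, 30794957 to 30795240) had folds of 9.28, 8.20 and 6.84, highest in replicate 1 and lowest in replicate 3. Of 10 JAK/STAT genes Ptp61F was the single host.

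The ecdysone response had 9 host genes among 19, with 27 regions, and 6 of the genes had a region in all 3 libraries. Of its genes under 20 kb, 2 of 8 were hosts, beside 2.67% of all genes. At 20 to 50 kb it was 2 of 4 beside 21.1%, and at 50 kb or more 5 of 7 beside 38.8%. These counts are small. Ecdysone is the steroid that times metamorphosis. The ETS gene Eip74EF had 5 regions, with folds of 10.3, 5.79 and 4.39 at the one from 17577743 to 17578389 on 3L, highest in replicate 1 and lowest in replicate 3. The nuclear receptor gene Eip75B had 6, of which that from 18037866 had 5.22, 7.27 and 8.19. Regions in all 3 libraries were also found in the nuclear receptor genes Eip78C, Hr4 and Hr38 and in crol. The receptor gene EcR had 3 regions, none of them in all 3 libraries.

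Of the adhesion and axon guidance genes, a group of long genes, 13 of 53 were hosts, or 24.5%. Within genes of 20 to 50 kb it was 5 of 19 (26.3%), and at 50 kb or more 6 of 18 (33.3%), near the 21.1 and 38.8% of all genes of those lengths. Under 20 kb it was 2 of 16 (12.5%), beside 2.67% of all genes. Hosts with a region in all 3 libraries were kirre, rst, hbs, Ten-a, Ten-m, CadN, fra and if. Of the planar polarity and cytoskeleton genes 9 of 26 were hosts, with regions in all 3 libraries in zip, shot and pyd. Of the matrix genes 9 of 18 were, among them LanA, qsm and Ppn in all 3 libraries. By length the matrix hosts were 4 of 11 under 20 kb, 1 of 3 at 20 to 50 kb and 4 of 4 at 50 kb or more. The shares of all genes were 2.67, 21.1 and 38.8%, and the counts are small. At LanA, a laminin chain gene, the folds were 3.27, 5.52 and 5.15.

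Genes of the disc myoblasts and muscle are long too, and 3 of 13 (23.1%) were hosts. By length these were 0 of 3 under 20 kb, 1 of 4 at 20 to 50 kb and 2 of 6 at 50 kb or more, too few to set against the 2.67, 21.1 and 38.8% of all genes. Of the Polycomb, Trithorax and GAGA factor genes 4 of 20 were hosts. The myoblast gene twi had 5 regions, of which 4 also lie in the overlapping gene CG42741. The region from 23022927 to 23023356 on 2R had folds of 6.46, 9.75 and 11.9 and that from 23034124 had 4.74, 9.62 and 9.21, both lowest in replicate 1. In zfh1, another gene of these cells, the region from 30767170 on 3R had 4.47, 5.86 and 9.27. Whether these regions were bound in myoblasts or in the epithelium was not tested. The Polycomb gene Psc had a region with 4.85, 6.35 and 8.07 (2R, 12971832 to 12972146).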

How the data were processed

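Peaks were identified with MACS2, per the labels' series design text, in 3 haltere Ubx ChIP libraries, 1 list each; the submitters' processing notes also name Trimmomatic 0.36, BWA and the build BDGP6. Options, controls and duplicate handling are not given in the sources used here. The deposited lists give for each peak a score, a fold enrichment (linear ratio) and the significance as −log10 of p and of q, all the authors' own values. The deposited consensus list gives positions only. No read counts are given, so depth is unknown, which limits what an absent peak can mean.

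Samples were grouped by title. Regions were assigned with the RefSeq Release 6 gene table (protein-coding genes), overlaps needed at least 1 bp, and with several peaks at a region the highest fold was used. Percentiles are ranks within a list. Comparisons used the exact two-sided sign-flip permutation over 3 libraries, and the code was tested on simulated data. Software was scipy 1.17.1, pandas 2.3.3 and numpy 2.4.6 under Python 3.11.15. Named genes are the 20 hosts with most regions, the hosts of the 15 strongest regions, listed genes with a region in all 3 libraries, and those at the 1000 bp limit; others, including listed hosts without such a region and non-hosts, were named after their values were seen. A gene in several lists counted in the first. Of 343 listed names, 5 were not matched. Symbols for 3 genes (Delta, scb, dachs) were corrected to the table's after the first match. The regions and the lists were chosen with earlier results of these data known. Alternatives were the end distance, the chain rule, the overlap, the strength measure and leaving out each replicate.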

Additional observations from a re-analysis of the deposited data

How the results depend on the processing

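The number of deep intragenic regions and of host genes stayed within 1.5 times of the reported 751 and 433 with gene ends at 500 or 2000 bp, with chains kept, with other chain gaps (regions only), and without replicate 1 or 2. Leaving out each replicate gave 404 to 579 regions in 253 to 348 genes, lowest without replicate 3; the cause was not tested. The share found in all 3 libraries was 36.2% when 50% of the region had to be covered and 20.6% with the strongest 50% of each list, where fewer peaks can match. Of the regions shared by the remaining libraries, 58.9 to 91.8% were found in the replicate left out. The fold percentile difference from far intergenic regions was -0.752 with gene ends at 500 bp and between 0.834 and 3.48 without a replicate; that from regions near gene ends was between -0.930 and 4.90, negative without replicate 2, and 4.06 with chains kept. Both reported means are smaller than the SD between libraries, and the cause was not tested. Listed genes with a region numbered 63 when it had to be in all 3 libraries, and 77 to 93 without a replicate, both tried after seeing the data. The planned motif counts were not run, because no sequence was used. No paired analysis was possible because a single group of samples was used, so no groups of samples were compared; the comparisons between positions were made within each library. Unknown read depth limits every statement on a missing peak.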

Other observations

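Genes of other types overlapped 44 of the 751 deep intragenic regions: 34 regions overlapped a long noncoding RNA gene, 8 an antisense RNA gene, 1 a pseudogene and 1 a transfer RNA gene. The share of deep gene interior covered by such genes was not computed, so these counts have no background. They are not all separate genes: all 6 regions of bi overlapped 1 long noncoding RNA gene, and all 5 of Ten-m another. The region at the transfer RNA gene lay inside Pu (2R, 21181113 to 21181333), was found in all 3 libraries and had a mean fold percentile of 93.2. The antisense RNA gene in bs overlapped both regions of that gene, which had mean percentiles of 32.7 and 24.7. These were named after their values were seen.

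Peaks deep inside genes that overlapped no consensus region numbered 811 in replicate 1, 275 in replicate 2 and 795 in replicate 3. Their median fold enrichment was 4.18, 3.58 and 3.93, below the 4.78, 4.56 and 5.29 of the deep peaks that did.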
